A study of Mus musculus with 12 samples.

Results

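Transcripts of 36 genes of T cells, natural killer (NK) cells and immune checkpoints were followed in 12 mammary tumors from 9 MADM-mutant mice. The genes were chosen by symbol from the 47593 genes of the expression table, and all 36 were found. MADM (mosaic analysis with double markers) makes sparse cells that lose both copies of a gene in an otherwise heterozygous animal, by Cre-driven exchange between homologous chromosomes. All tumors were of 1 condition, with MADM RG;GR alleles in a mixed background according to the labels, and none was treated. According to the methods of the study, these mice carried Brca1 flox and p53 knockout alleles, and Cre was driven by MMTV to act in mammary epithelial cells, of which only a sparse fraction lost both genes in a heterozygous animal. Of the mice, 7 gave 1 tumor each, a further mouse gave tumors 3 and 4, and the last gave tumors 10, 11 and 12. The ages of these mice are not given in the labels, and normal gland was not analysed here, so the comparisons are between genes within a tumor and between tumors.

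T cells recognise antigen through a receptor whose variable chains are held at the surface by the CD3 chains, and CD4 or CD8 binds the presenting MHC molecule beside it. Costimulatory receptors such as CD28 and ICOS raise the response, whereas inhibitory receptors such as CTLA-4, PD-1, LAG-3, TIM-3 and TIGIT (the immune checkpoints) restrain it, and a tumor or myeloid cell can engage PD-1 through its ligand PD-L1. Cytotoxic T cells and NK cells kill with granules that hold perforin and granzymes, and NK cells find their targets with receptors such as NKp46 and the NKG2 family in place of the T cell receptor.

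The values were TPM, in which reads of a gene are divided by its length and each tumor is scaled to a total of 1000000. This puts genes on a common scale but does not remove an error particular to a gene, such as reads shared with an overlapping gene. If alike in all mice, such an error gives a difference of constant sign. A test over mice cannot tell that from expression. Because TPM holds no read number, the depth of the tumors is unknown, and a value of 0 does not show that a transcript was absent. Errors are SDs over 9 mice after averaging the tumors of a mouse, and log2 differences are on the log2(TPM + 1) scale. In whole tumor tissue, fewer cells of a type and less RNA per cell cannot be told apart.

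A pair of tumors stood apart in marker genes that are not among the 36. The summed TPM of 5 epithelial genes (Krt8 with the highest mean and Cdh1 with the lowest) was 0.986 in tumor 2 and 155 in tumor 8, against 2124 to 7422 in the other 10 tumors, tumor 9 included. Epcam and Krt19 were listed at 0 in tumor 2 (named after their values were seen), so the labelled mammary epithelial tumor tissue was not seen in its markers there. The summed TPM of 5 B cell genes was 2059 in tumor 2, 130 in tumor 9, 20.9 in tumor 8 and 1.59 to 10.1 in the other 9 tumors. Results that depended on tumor 2 are given with and without it, except where stated.

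The 36 genes were low and variable as a group. The median over the genes of their mean TPM was 2.84, against 11.3 over the 20659 genes that reached 1 TPM in at least 1 tumor. The median of their SDs over mice on the log2 scale was 1.14, against 0.535 over the same 20659 genes. Just 6 of the 36 genes (16.7%) were at 1 TPM or more in every tumor (Cd4, Havcr2, Cd274, Trac, Tcf7 and Lck), compared with 57.9% of all genes tested, and 17 of the 36 were listed at 0 in 1 tumor or more, compared with 4903 of the 20659.

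Tumors 8 and 9 had the highest levels. The median TPM over the 36 genes was 9.45 in tumor 9, 6.41 in tumor 8, 3.16 in tumor 10 and 2.19 in tumor 12, between 0.802 and 1.60 in tumors 3, 4, 6, 7 and 11, and 0.562, 0.385 and 0.206 in tumors 5, 1 and 2. In tumor 9, 17 of the 36 genes had their highest value of the 12 tumors, against a background of 14.9% of all genes tested, and in tumor 8 this held for 13 genes, against a background of 11.8%. Of the other 6 genes, 2 were highest in tumor 2, where 19.7% of all genes tested were highest, and 1 each in tumors 4, 6, 7 and 11. Tumor 2 held the lowest or tied lowest value of 21 genes and tumor 1 that of 20, ties that include genes at 0 in several tumors. Of all genes tested, 35.4% were lowest or tied for the lowest in tumor 2, and the background for tumor 1 is not given. Without tumor 2 the counts were 19 genes for tumor 9, against a background of 17.4%, and 13 for tumor 8, against 13.8%. Without tumor 8, 29 genes were highest in tumor 9 (background 16.1%), and without tumor 9, 26 genes were highest in tumor 8 (background 14.1%).

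**Figure D1:**
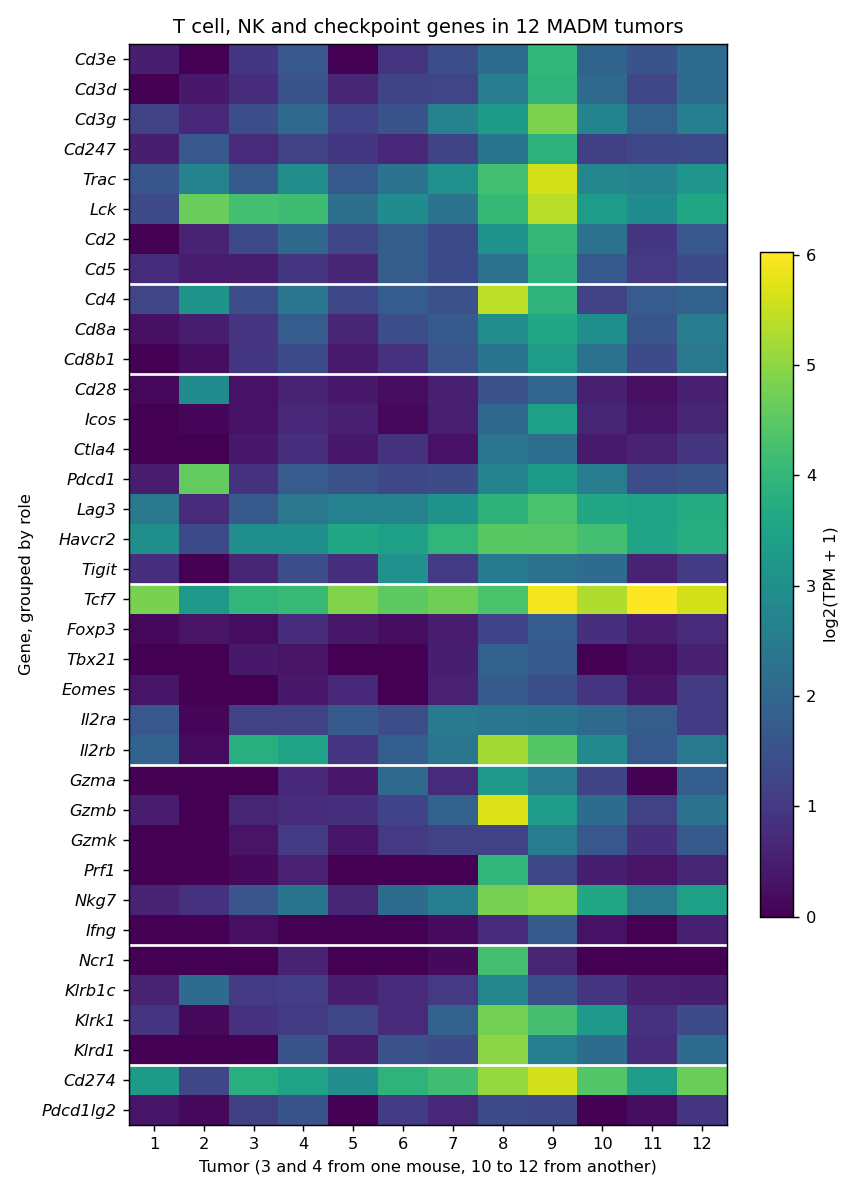
Levels of the 36 genes (rows, grouped by role and separated by white lines) in the 12 tumors (columns), colored by log2(TPM + 1). Tumor 9 is brightest in the CD3, Trac and Cd8a rows, tumor 8 in Ncr1, Prf1, Gzmb and Klrd1, and tumor 2 is dark in most rows but not in Lck, Pdcd1, Cd28, Cd4, Trac and Tcf7.

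The CD3 chains lie in a compact cluster, and their promoter sequences are shown here together with those of Ncr1 and Prf1, the genes that most set tumor 8 apart, because the results turn on how these genes moved. Each line gives 250 bases immediately before the RefSeq transcription start (GRCm38.p6), 5′ to 3′ on the strand of the gene. Capitals mark matches on either strand to an ETS core (GGAAG, whose reverse complement is CTTCC), a RUNX core (TGTGGT, whose reverse complement is ACCACA) or a T-box core (GGTGTG, whose reverse complement is CACACC). These motifs do not overlap one another in the windows shown.
Cd3g, chr9:44980432-44980681, minus strand: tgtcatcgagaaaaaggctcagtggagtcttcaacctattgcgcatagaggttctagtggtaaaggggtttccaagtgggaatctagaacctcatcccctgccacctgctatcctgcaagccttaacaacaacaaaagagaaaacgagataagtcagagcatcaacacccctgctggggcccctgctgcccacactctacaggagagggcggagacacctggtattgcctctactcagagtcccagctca
Cd3d, chr9:44981536-44981785, plus strand: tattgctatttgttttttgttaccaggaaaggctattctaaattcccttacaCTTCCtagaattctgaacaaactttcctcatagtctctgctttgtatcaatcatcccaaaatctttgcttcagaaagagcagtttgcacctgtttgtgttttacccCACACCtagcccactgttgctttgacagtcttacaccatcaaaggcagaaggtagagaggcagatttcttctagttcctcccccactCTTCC
Cd3e, chr9:45009612-45009861, minus strand: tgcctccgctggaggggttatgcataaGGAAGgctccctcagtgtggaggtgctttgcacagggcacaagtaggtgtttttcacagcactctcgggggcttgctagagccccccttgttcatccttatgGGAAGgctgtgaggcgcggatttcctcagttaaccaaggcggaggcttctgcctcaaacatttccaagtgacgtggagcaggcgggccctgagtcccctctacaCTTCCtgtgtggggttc
Ncr1, chr7:4337465-4337714, plus strand (the first of its 2 RefSeq starts): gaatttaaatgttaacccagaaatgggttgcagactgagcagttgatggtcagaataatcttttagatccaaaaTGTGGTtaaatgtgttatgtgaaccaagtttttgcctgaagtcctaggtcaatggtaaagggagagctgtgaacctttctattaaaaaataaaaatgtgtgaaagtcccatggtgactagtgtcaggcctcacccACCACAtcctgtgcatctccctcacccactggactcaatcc
Prf1, chr10:61297586-61297835, plus strand: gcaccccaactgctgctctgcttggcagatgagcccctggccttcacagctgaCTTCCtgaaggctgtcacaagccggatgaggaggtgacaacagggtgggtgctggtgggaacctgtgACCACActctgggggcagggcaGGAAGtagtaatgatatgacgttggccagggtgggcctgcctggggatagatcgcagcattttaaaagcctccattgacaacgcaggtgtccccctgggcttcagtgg

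Cd3g and Cd3d are transcribed away from each other from starts 1355 bases apart. The Cd3d window held 2 ETS cores and 1 T-box core, the Cd3e window 3 ETS cores and the Cd3g window none of the 3 motifs. The Ncr1 window held 2 RUNX cores, and the Prf1 window 2 ETS cores and 1 RUNX core. Such short motifs are common: of 32817 RefSeq windows of this length, 64.1% held the ETS core, 14.0% the RUNX core and 16.3% the T-box core, compared with 21, 10 and 6 of the 27 genes of the group that had a window. A match is a string of letters and not a binding site, and no match says no more than that these letters are not in the window.

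The CD3 and T cell receptor genes had their highest level in tumor 9. Cd3e (chromosome 9, 44998740 to 45009627, minus strand), a signalling chain of the receptor complex, was at 15.0 TPM in tumor 9, followed by 3.40 in tumor 8, 3.34 in tumor 12, 2.86 in tumor 10, 2.10 in tumor 4, 1.97 in tumor 11 and 1.75 in tumor 7. It was under 1 TPM in tumors 1, 3 and 6 (0.417, 0.976 and 0.866) and listed at 0 in tumors 2 and 5, with a mean of 2.85 ± 4.69 TPM (SD, n = 9 mice). Tumor 9 was thus 4.40-fold above the next tumor, whereas the 6 tumors after it lay close together between 1.75 and 3.40 TPM. Cd3d (chromosome 9, 44981786 to 44987339) and Cd3g (chromosome 9, 44969572 to 44980431), the chains encoded beside it, reached 14.0 and 27.4 TPM in tumor 9, 2.91-fold and 3.13-fold above tumor 8 as the next. Cd3g was listed above 0 in every tumor, from 0.596 TPM in tumor 2, whereas Cd3d was at 0 in tumor 1. Cd247, the zeta chain, was at 13.7 TPM in tumor 9 and 3.97 in tumor 8, and it came next in tumor 2 (2.13 TPM), above a median of 1.24 over the other 11 tumors. Trac, the constant segment of the alpha chain (chromosome 14, 54220521 to 54224206), ran from 2.06 TPM in tumor 1 through a median of 5.70 to 48.9 in tumor 9, with 17.8 in tumor 8. The 5 genes of the receptor complex had the same 2 highest tumors, 9 and 8, in that order.

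Lck, the kinase that phosphorylates the CD3 chains, did not follow that order throughout. It was highest in tumor 9 (40.4 TPM), but the next values were 23.9 TPM in tumor 2, 17.7 in tumor 3 and 16.7 in tumor 4, above the 15.4 TPM of tumor 8. The ratio of Lck to Trac was 7.77 in tumor 3, 4.35 in tumor 2 and 2.42 in tumor 4, and between 0.539 and 1.71 in the other 9 tumors. Tumors 3 and 4, from the same mouse, thus combined high Lck with Cd3e of 0.976 and 2.10 TPM. Cd2, an adhesion receptor of T and NK cells, and Cd5, a scavenger-type receptor of T cells and some B cells, again reached their highest values in tumor 9 (15.0 and 13.6 TPM) and their second highest in tumor 8 for Cd2 (7.40 TPM) and Cd5 (3.71 TPM). In the other tumors Cd2 did not exceed 3.78 TPM and Cd5 did not exceed 2.44.

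The coreceptor genes separated the pair of high tumors. Cd8a (chromosome 6, 71373427 to 71379173), which marks cytotoxic T cells, was at 11.1 TPM in tumor 9, 7.05 in tumor 10, 6.87 in tumor 8 and 4.86 in tumor 12, had a median of 2.17 TPM, and was lowest in tumor 1 (0.206 TPM). Its partner chain Cd8b1, which lies close by (chromosome 6, 71322788 to 71337494), reached 8.89 TPM in tumor 9 and 4.32 in tumor 12, and was listed at 0 in tumor 1. Cd8a exceeded Cd8b1 in 9 of 9 mice, by 0.33 ± 0.18 on the log2 scale (SD; exact sign-flip permutation test over mice, two-sided, p = 0.0039, which is the smallest this test can give, adjusted p = 0.016 by Benjamini-Hochberg over 8 contrasts). With a pseudocount of 0.1 in place of 1 the difference was 0.67 (adjusted p = 0.016). The test cannot tell a difference this small from a constant error in how either gene was quantified. Cd4, which marks helper and regulatory T cells and in mice also some dendritic cells, was highest in tumor 8 (41.6 TPM), 2.93-fold above the 14.2 TPM of tumor 9, with tumor 2 next at 7.74 TPM. In the other 9 tumors Cd4 lay between 1.29 and 4.12 TPM. Cd4 exceeded Cd8a in 7 of 9 mice by 0.77 ± 1.13, and this difference did not pass the test (exact sign-flip permutation test, p = 0.074, adjusted p = 0.12). It was largest in the mice of tumors 2 and 8 (2.63 and 2.44) and was reversed in the mouse of tumors 10 to 12 (-0.80), without which the mean of 0.97 passed (adjusted p = 0.031).

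**Figure D2:**
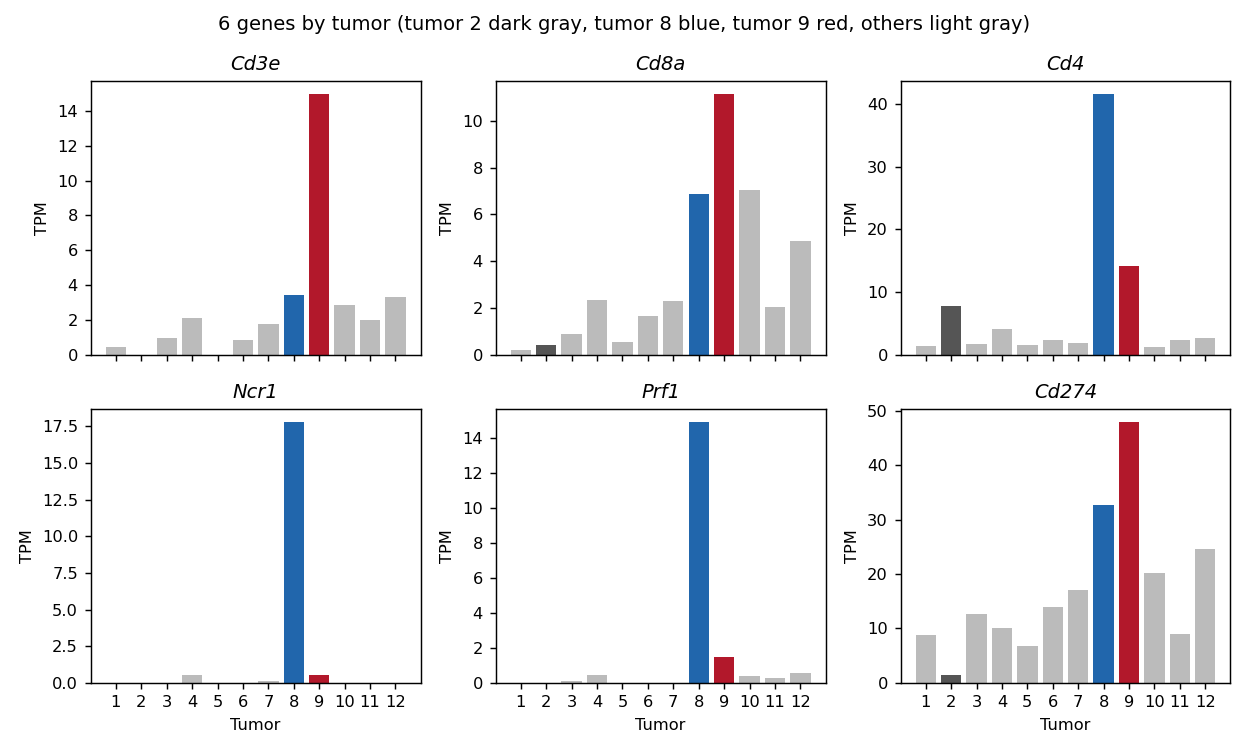
TPM of Cd3e, Cd8a, Cd4, Ncr1, Prf1 and Cd274 in each of the 12 tumors, as bars from 0, with tumors 2, 8 and 9 in color and a scale of its own for each gene. Cd3e, Cd8a and Cd274 are highest in tumor 9 (15.0, 11.1 and 47.9 TPM), and Cd4, Ncr1 and Prf1 in tumor 8 (41.6, 17.8 and 14.9 TPM).

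Costimulatory and inhibitory receptors differed in which tumor led. Icos, a costimulator of activated and follicular T cells, was at 9.79 TPM in tumor 9 and 3.11 in tumor 8, and in all 10 others it did not exceed 0.619 TPM. Ctla4, an inhibitor that competes with CD28 for the same ligands, was at 4.11 TPM in tumor 8 and 3.55 in tumor 9, with no more than 0.934 TPM elsewhere and 0 in tumors 1 and 2. A ribosomal protein pseudogene, Rpl18-ps1, lies within the span of Ctla4 on the same strand, with up to 61.6 TPM, and how reads were divided between them is not stated. Cd28 was highest in tumor 2 (6.54 TPM), ahead of tumor 9 (2.89) and tumor 8 (1.82), and at 0.502 TPM or less in the other 9 tumors. Cd28, Ctla4 and Icos are neighbours on chromosome 1, from 60716800 to 61000320, yet tumor 2 had Cd28 at its highest value with Icos at 0.0812 TPM and Ctla4 at 0. The difference of Ctla4 minus Cd28 over mice did not pass (-0.12 ± 1.10 (SD), exact sign-flip permutation test, p = 0.93, adjusted p = 0.93), and the mean changed sign to 0.23 without tumor 2, where it was -2.91 (adjusted p = 0.20). With a pseudocount of 0.1 it was -0.37 (adjusted p = 0.83).

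Pdcd1, which encodes PD-1, an inhibitor found on activated T cells and also on activated B cells, had its highest value in tumor 2 as well. It was at 22.8 TPM there, then 8.71 in tumor 9, 5.44 in tumor 8, 4.73 in tumor 10 and 0.407 to 2.30 in the other 8 tumors. With tumor 2 the mean was 5.17 ± 7.08 TPM (SD, n = 9 mice), and without it 2.97 ± 2.75 (SD, n = 8). Pdcd1 and Cd28 in tumor 2 stood beside Cd3e at 0, Cd3d at 0.337 TPM, Trac at 5.51 TPM and the B cell gene sum of 2059 TPM given above, of which none of the 5 genes was at 0. The part of B-lineage cells in these values was not tested.

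Havcr2, which encodes TIM-3 and is known from macrophages and dendritic cells as well as exhausted T cells, was at 1 TPM or more in every tumor. Its level lay between 6.97 and 21.5 TPM in 11 tumors, with tumors 8 and 9 (21.5 and 21.0 TPM) not apart from tumor 10 (17.5), and fell outside this range only in tumor 2 (1.55 TPM). Havcr2 exceeded Pdcd1 in 8 of 9 mice, but the mean difference of 1.42 ± 1.79 did not pass the test (exact sign-flip permutation test, p = 0.051, adjusted p = 0.10). In the mouse of tumor 2 the difference was -3.22, and without it the mean was 2.00 in 8 of 8 mice (adjusted p = 0.016). Lag3, an inhibitory receptor that binds MHC class II, ran from 0.655 TPM in tumor 2 and 2.22 in tumor 3 to 13.8 in tumor 8 and 18.5 in tumor 9. The 3 tumors of one mouse, 10, 11 and 12, were close together in Lag3 (11.3, 10.3 and 12.3 TPM) and came directly after tumors 8 and 9. Tigit, an inhibitory receptor of T and NK cells, was alone in having its highest value in tumor 6 (7.21 TPM), ahead of tumors 8, 9 and 10 (4.58, 3.85 and 3.32), and it was at 0 in tumor 2.

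Transcription factor genes of T cell subsets were mostly under 1 TPM. Foxp3, the factor of regulatory T cells, was at 2.34 TPM in tumor 9 and 1.33 in tumor 8, and between 0.0882 and 0.779 in the others. Its span overlaps genes on the opposite strand, and whether the counting used strand is not stated. Tbx21 (T-bet) and Eomes, related factors of cytotoxic and NK cells, were highest in tumor 8 (2.67 and 2.27 TPM) with tumor 9 next (2.19 and 1.77), and were listed at 0 in 5 and 3 tumors. Tbx21 minus Eomes did not pass the test and was smaller than the spread over mice (-0.12 ± 0.32, exact sign-flip permutation test, p = 0.30, adjusted p = 0.34), and was -0.56 with a pseudocount of 0.1 (adjusted p = 0.27).

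Tcf7, which encodes TCF-1, a factor of naive and memory-like T cells and a mediator of Wnt signals in other cells, was the highest of the 36 genes by mean level, at 28.4 ± 16.5 TPM (SD, n = 9 mice). Its highest value was 64.0 TPM in tumor 11, followed by 59.7 in tumor 9 and 48.8 and 38.5 in tumors 12 and 10, and its lowest was 8.39 in tumor 2. Tumor 11 had Cd3e of 1.97 TPM, close to tumor 4 (2.10 TPM), in which Tcf7 was 15.8. The receptor chains of interleukin-2 also differed from each other: Il2ra, the chain that gives high affinity, was highest in tumor 7 (4.68 TPM), with tumors 8 and 9 (4.19 and 4.10) next, and at 0.0535 TPM in tumor 2. Il2rb, the signalling chain shared with interleukin-15, was at 35.99 TPM in tumor 8 and 20.6 in tumor 9, and the next values, 12.6 and 10.0 TPM, belonged to tumors 3 and 4 of one mouse. Lck relative to Trac was high in these tumors too, but also in tumor 2, where Il2rb was at its lowest (0.139 TPM). The mast cell genes other than Kit (Cpa3, Mcpt4 and Cma1) summed to 18.2 and 22.5 TPM in tumors 3 and 4, with none of the 3 at 0, against 0.108 to 7.80 in the other 10 tumors. With Kit, which was at 47.2 and 33.5 TPM in tumors 3 and 4, the sum of the list was 65.4 and 56.0 TPM there, inside the range of 1.21 to 103 in the other tumors. Their part in the Lck and Il2rb levels was not tested.

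Of 6 genes of killing, Gzmb, Prf1 and Gzma were highest in tumor 8 and Gzmk, Nkg7 and Ifng in tumor 9. Gzmb (granzyme B) was at 51.2 TPM in tumor 8, 9.10 in tumor 9, 3.91 in tumor 12 and 3.39 in tumor 10, and at 2.76 or less in the others, with 0 in tumor 2. Prf1 (perforin, chromosome 10, 61297833 to 61304680) was at 14.9 TPM in tumor 8, 1.46 in tumor 9, 0.577 or less in all others and at 0 in 5 tumors, so that tumor 8 was 10.2-fold above the next. Gzmb exceeded Prf1 in 8 of 9 mice, both being at 0 in the mouse of tumor 2, by 1.10 ± 0.73 (exact sign-flip permutation test, p = 0.0078, adjusted p = 0.021). Without tumor 2 the difference was 1.23 (adjusted p = 0.016), and with a pseudocount of 0.1 in place of 1 it was 2.42 (adjusted p = 0.021). Gzma (granzyme A) was highest in tumor 8 (8.37 TPM), then in tumor 9 (4.75) and tumor 6 (3.15), and at 0 in tumors 1, 2, 3 and 11. Gzmk (granzyme K), its neighbour on chromosome 13, instead was highest in tumor 9 (4.75 TPM), with tumors 12 and 10 next (2.26 and 2.12) and 1.27 TPM in tumor 8. Nkg7, a granule membrane protein of cytotoxic cells, was similar in the high pair, at 29.7 TPM in tumor 9 and 26.7 in tumor 8, followed by 11.2 in tumor 10 and 9.72 in tumor 12. Ifng, the cytokine interferon gamma, was the lowest of the 36 genes by mean (0.380 ± 0.747 TPM, SD, n = 9 mice), at 2.28 TPM in tumor 9, 0.685 in tumor 8, and 0 in 6 tumors.

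The NK receptor genes were all highest in tumor 8. Ncr1 (chromosome 7, 4337724 to 4345164), which encodes NKp46, a receptor that T cells mostly lack, was at 17.8 TPM in tumor 8, at 0.551, 0.507 and 0.105 in tumors 9, 4 and 7, and at 0 in the other 8 tumors. Klrd1 (CD94), which pairs with NKG2 chains on NK and some cytotoxic T cells, was at 30.6 TPM in tumor 8 and 5.04 in tumor 9, with 3.36 TPM or less elsewhere and 0 in tumors 1, 2 and 3. Klrk1 (NKG2D), which lies beside it on chromosome 6 and is also used by CD8 T cells, was less exclusive, with 26.2 TPM in tumor 8, 18.0 in tumor 9 and 8.44 in tumor 10, against 0.0926 to 2.70 in the remaining tumors. Klrb1c (NK1.1 in some strains) was at 5.96 TPM in tumor 8, but the second value was 3.28 in tumor 2. The span of Klrb1c overlaps Gm44511 on the same strand, with up to 13.2 TPM, and the Klr genes are a multigene family, so its value is uncertain. The difference of Cd3e minus Ncr1 was positive in 6 mice, 0 in the mice of tumors 2 and 5, where both were at 0, and -2.09 in the mouse of tumor 8, with a mean of 0.76 ± 1.49 that did not pass the test (exact sign-flip permutation test, p = 0.17, adjusted p = 0.23). Without tumor 8 the mean was 1.12 (adjusted p = 0.063), without tumor 9 it was 0.44 (adjusted p = 0.39), and without tumor 2 it was 0.86 (adjusted p = 0.20). With a pseudocount of 0.1 it was 2.05 and still did not pass (adjusted p = 0.063).

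Tumors 8 and 9 also differed when set against Ptprc, which encodes the leukocyte protein CD45. Ptprc itself was at 113 TPM in tumor 8, 91.7 in tumor 2, 81.2 in tumor 7, 65.5 in tumor 10 and 64.1 in tumor 9, and between 26.2 and 41.5 in the others. As a percentage of the TPM of Ptprc, Cd3e was 23.3% in tumor 9, 3.02% in tumor 8 and 0 to 8.03% in the other 10 tumors. Trac was 76.2% of Ptprc in tumor 9 and 15.7% in tumor 8, the latter below tumors 4 and 12 (19.9% and 18.9%). Ncr1 was 15.8% of Ptprc in tumor 8 and 1.46% or less elsewhere.

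Of the 8 contrasts, that between the ligands of PD-1 was the largest. Cd274, which encodes PD-L1 (chromosome 19, 29367455 to 29388095, plus strand), was at 47.9 TPM in tumor 9, 32.8 in tumor 8, 24.6 in tumor 12 and 20.3 in tumor 10, between 6.75 and 17.1 in 7 tumors, and at 1.43 in tumor 2. Its neighbour Pdcd1lg2, which encodes PD-L2 (chromosome 19, 29410919 to 29471161, plus strand), did not exceed 1.98 TPM, its value in tumor 4, and was at 0 in tumors 5 and 10. Cd274 exceeded Pdcd1lg2 in 9 of 9 mice, by 3.05 ± 0.93 on the log2 scale (exact sign-flip permutation test, p = 0.0039, adjusted p = 0.016). The smallest difference, 1.16, was that of the mouse of tumor 2, and the largest, 4.32, that of tumor 9. Without tumor 2 the mean was 3.29 (adjusted p = 0.016).

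**Figure D3:**
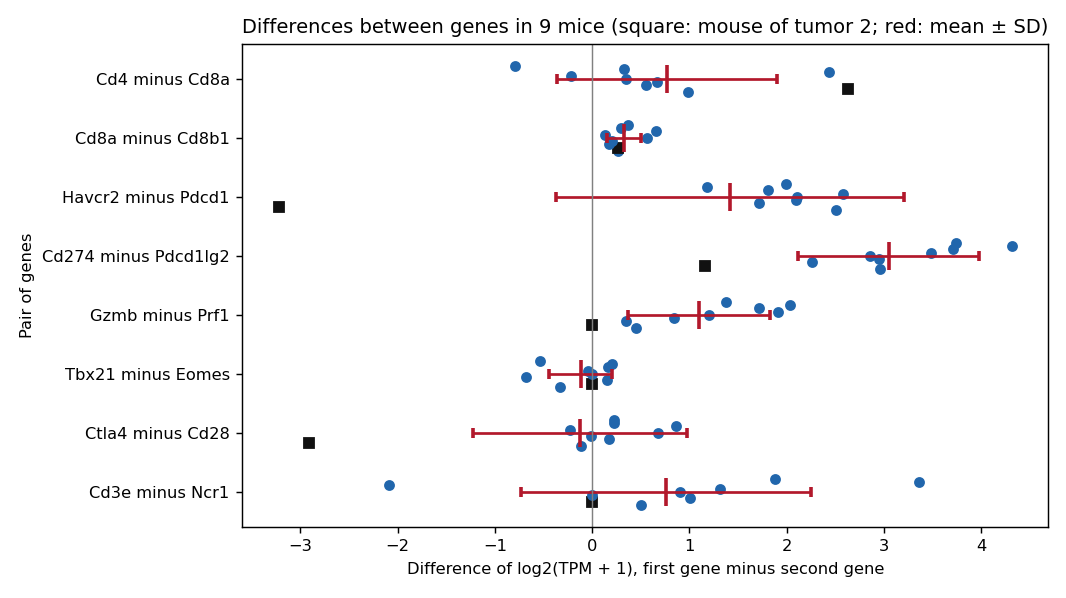
Differences of log2(TPM + 1) between 2 genes, the first minus the second, for the 8 contrasts in 9 mice (circles, with a square for the mouse of tumor 2), with the mean and SD in red. All 9 mice lie above 0 for Cd8a minus Cd8b1 and Cd274 minus Pdcd1lg2, and the mouse of tumor 2 lies apart at -3.22 for Havcr2 minus Pdcd1 and at -2.91 for Ctla4 minus Cd28.

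Whether single genes varied together was tested over the 9 mice for 8 pairs. For each pair r is given again without the 2 mice farthest from the median of the first gene. For Cd3e these were the mice of tumors 5 and 9, tumor 2 being tied with tumor 5 at 0.

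Cd3e and Cd8a gave r = 0.94 (exact permutation p = 8.27e-05, adjusted p = 0.00066 over 8 pairs) and rho = 0.93 (exact permutation p = 0.00088). Without the 2 farthest mice r was 0.94 (exact permutation p = 0.0030), and without tumor 2 it was 0.93. Cd3e and Foxp3 gave r = 0.91 (exact permutation p = 0.00091, adjusted p = 0.0027) and rho = 0.85 (exact permutation p = 0.0066), with r = 0.82 without the 2 farthest mice and 0.92 without tumor 2. Cd3e and Cd274 gave r = 0.88 (exact permutation p = 0.0032, adjusted p = 0.0064) and rho = 0.96 (exact permutation p = 0.00020), with 0.90 without the 2 farthest mice and 0.94 without tumor 2. These 3 relations kept their direction without the mouse of tumor 9, the one with the highest Cd3e, although without tumors 2 and 9 together Cd3e and Foxp3 gave r = 0.77 and no longer passed (adjusted p = 0.079).

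For Cd4 the relation to Cd3e was weaker and did not pass, with r = 0.53 (exact permutation p = 0.14, adjusted p = 0.23), rho = 0.53 (exact permutation p = 0.15), and r = 0.31 without the 2 farthest mice and 0.68 without tumor 2. Cd3e and Ncr1 gave r = 0.36 (exact permutation p = 0.29, adjusted p = 0.39) and rho = 0.75 (exact permutation p = 0.029), with r = 0.59 without the 2 farthest mice. Without tumor 8 their r was 0.86 (adjusted p = 0.038), but there Ncr1 did not exceed 0.551 TPM, and without tumor 2 it was 0.33. Cd3e and Pdcd1 gave r = 0.21 (exact permutation p = 0.57, adjusted p = 0.58) and rho = 0.25 (exact permutation p = 0.51), with r = -0.25 without the 2 farthest mice. That value turned on tumor 2, without which r was 0.86 (adjusted p = 0.010), and on tumor 9, without which it was -0.15.

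The relation of 2 of the genes to Csf1r, the receptor gene of macrophages, was tested because both are known from myeloid cells as well. Havcr2 and Csf1r gave r = 0.94 (exact permutation p = 0.0010, adjusted p = 0.0027) and rho = 0.85 (exact permutation p = 0.0061). Without the 2 mice farthest in Havcr2, those of tumors 8 and 2, r was 0.71 and no longer passed (exact permutation p = 0.066), so the relation rested in part on these mice, and without tumor 2 alone it was 0.79 (adjusted p = 0.021). Cd4 and Csf1r gave r = 0.20 (exact permutation p = 0.58, adjusted p = 0.58) and rho = 0.42 (exact permutation p = 0.27), and the value depended on which mouse was left out. It was 0.93 without tumor 2 (adjusted p = 0.010), -0.24 without tumor 8 and -0.91 without the mice of tumors 8 and 9 (exact permutation p = 0.091), a range in which no direction can be given. The summed TPM of the 5 macrophage genes, Cd68 highest and Mrc1 lowest by mean, was 702 in tumor 8, 392 in tumor 9, 74.7 in tumor 2 and 210 to 441 in the others, with none of the 5 under 1 TPM in any tumor. The part of macrophages in the levels of Havcr2 and Cd4 was not tested.

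**Figure D4:**
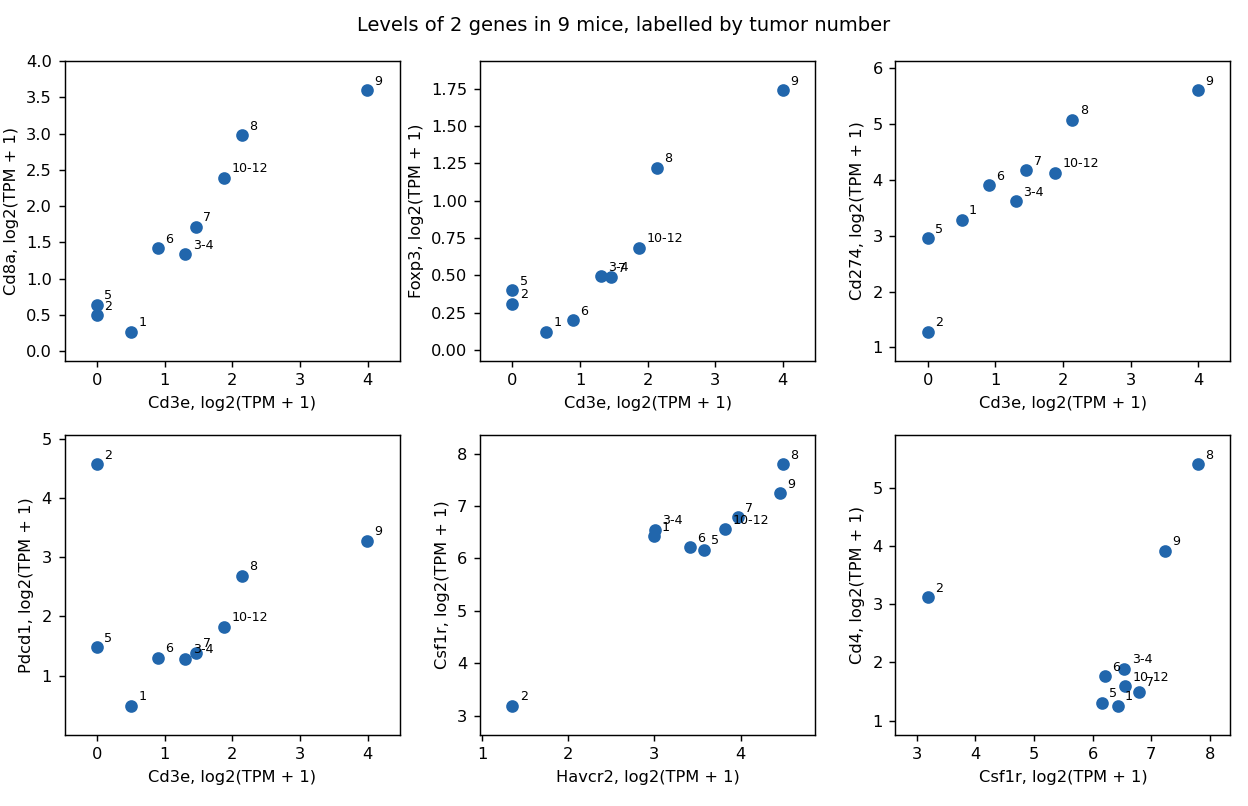
Levels of 2 genes, both as log2(TPM + 1), in 9 mice, each point labelled with its tumor number or numbers, for 6 of the 8 pairs tested. Cd8a, Foxp3 and Cd274 increase with Cd3e (r = 0.94, 0.91 and 0.88), Pdcd1 has tumor 2 apart at high Pdcd1 and Cd3e of 0, and tumors 2 and 8 lie at the ends of the Csf1r axis.

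Over the 35 genes other than Cd3e, 22 had r of 0.7 or more with Cd3e over the 9 mice, against a background of 7.62% of the genes tested, as a description. Without tumor 9 there were 19, against a background of 3.99%, and without tumor 2 there were 23, against a background of 10.0%. The highest were Cd3g (0.97), Cd8b1 (0.96), Cd3d (0.95) and Gzmk (0.95). The lowest were Cd28 (0.20), Pdcd1 (0.21), Klrb1c (0.27) and Ncr1 (0.36), of which the first 3 are genes with high values in tumor 2 and were at 0.87, 0.86 and 0.54 without it, whereas Ncr1 was then at 0.33. Of the genes outside the group, those most like Cd3e over the 9 mice included Cxcr6, Gbp8, Igkv5-43, Robo1, C920009B18Rik, Kcnk6, Serpina3f, Rasgrp1 and Igkv8-21, with r from 0.98 to 0.95. Cxcr6, a chemokine receptor of resident and effector T cells, was at 18.4 TPM in tumor 9 and 4.50 in tumor 8. The 10 most like Cd274 were 1110065P20Rik, AW112010, Mfng, Psmf1, Itgal, P2ry12, Aim2, Naip6, Rhog and Cfb, with r from 0.99 to 0.97. For both sets r was not computed without tumor 2, where Cd274 was lowest (1.43 TPM). These genes were picked as the highest of many over 9 mice, so their r carries no test.

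Other genes of the same pathways were read from lists. Of 14 further T cell receptor and signalling genes, from Thy1 (63.1 ± 42.4 TPM, SD, n = 9 mice) as the highest to Cd40lg (0.263 ± 0.595) as the lowest, 9 were highest in tumor 9, 1 in tumor 8 and 3 in tumor 2, beside the backgrounds of 14.9%, 11.8% and 19.7% of all genes tested. The share in tumor 2 was near its background. The 3 that were highest in tumor 2, named after their values were seen, were Il7r (344 TPM) and Lef1 (50.9), both known from early B cells as well as T cells, and Zap70 (43.1), a kinase of the T cell receptor, while the beta chain genes Trbc1 and Trbc2 were at 0.305 and 0.967 TPM there. The sum of this list was 469 TPM in tumor 2, 285 in tumor 9, 266 in tumor 8 and 57.0 to 173 in the others. Single genes made up much of it, Il7r 344 TPM of the sum in tumor 2 and Thy1 161 TPM of that in tumor 8. The median of the list was 13.3 TPM in tumor 9 and 4.70 in tumor 8, and 0.671 TPM in tumor 2, below all other tumors (0.770 to 1.89). Of 16 ligands and partners of the receptors, from Lgals9 (217 ± 93.1 TPM), a ligand of TIM-3, to Fgl1 (0.139 ± 0.417), a ligand of LAG-3, 6 were highest in tumor 8 (background 11.8%) and 3 in tumor 9, the latter a share near the background of 14.9%. Of 8 chemokines and chemokine receptors of T cells, from Cxcl16 (166 ± 66.1 TPM) to Cxcr3 (2.51 ± 2.66), 3 were highest in tumor 8 and 3 in tumor 9, beside the same backgrounds, and their sum was 1012 TPM in tumor 8, 709 in tumor 9, 283 to 671 in the other 9 and 11.1 in tumor 2.

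Marker lists of other cell types were also read in tumor 9, with mixed results. The B cell genes, Cd79b highest and Ms4a1 lowest by mean, summed to 130 TPM there with none of the 5 at 0. Of the 5 dendritic cell genes, Itgax highest and Xcr1 lowest by mean, 4 were highest in tumor 9, beside the background of 14.9% of all genes tested, and the median of the list was 5.48 TPM there against 2.24 or less in every other tumor. The sum of the list was 69.9 TPM in tumor 9, inside the range of 37.1 to 72.8 in the tumors other than 2, 8 and 9. Without Itgax, which was at 37.2 TPM in tumor 9, the sum was 32.7 TPM there against 2.11 to 11.7 in the others. No gene of the list was at 0 in tumor 9.

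Of the 7 lymph node genes, 3 were highest in tumor 9, beside the same background of 14.9%. Their sum was 1348 TPM there, of which Cr2, the highest of the list by mean and a receptor of B cells and follicular dendritic cells, made up 1267. Without Cr2 the sum was 80.6 TPM in tumor 9, inside the range of 4.92 to 242 in the other tumors. Ccl19, the lowest of the list by mean, had 12.9 TPM in tumor 9 against a highest value of 1.11 TPM elsewhere. Other genes of the list, named after their values were seen, were not highest there: Ccl21a was at 0.185 TPM, with 184 in tumor 8, Cxcl13 at 28.9, with 84.6 in tumor 10, and Glycam1 at 3.78, with 10.8 in tumor 11. The part of B cells, dendritic cells and lymph node tissue in the T cell levels of tumor 9 was not tested. The mast cell genes other than Kit, the highest of that list by mean, with Cpa3 the lowest, summed to 1.05 TPM in tumor 9, and Cma1 was at 0 there. With Kit, at 44.3 TPM, the sum was 45.4 TPM, inside the range of 21.2 to 103 in the tumors other than 2, 8 and 9 (1.21 and 4.83 TPM in tumors 2 and 8).

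Tumors of the same mouse were compared for 3 genes. The mean absolute difference in Cd3e between the 4 pairs of tumors from one mouse was 0.434 on the log2 scale, against 1.29 between the 62 other pairs (exact permutation of the animal labels over 12 tumors, one-sided, p = 0.037, adjusted p = 0.11 over 3 genes). For Cd274 the values were 0.760 and 1.31 (same exact permutation test, p = 0.17, adjusted p = 0.22), and for Ncr1 0.148 and 0.911 (p = 0.22, adjusted p = 0.22), so that none passed after adjustment. Each of these differences depended on single tumors. The same-mouse value minus the other was -0.86 for Cd3e and -0.53 without tumor 9 (exact permutation p = 0.064, adjusted p = 0.19), and for Ncr1 it was -0.76 and -0.07 without tumor 8 (exact permutation p = 0.38, adjusted p = 0.38). For Cd274 it was -0.55, with -0.23 without tumor 2 (adjusted p = 0.28) and -1.08 without tumor 11, where it passed (exact permutation p = 0.014, adjusted p = 0.042). With a pseudocount of 0.1 the values were -1.86 for Cd3e (adjusted p = 0.075) and -1.40 for Ncr1 (adjusted p = 0.22). In Cd3e tumors 3 and 4 were at 0.976 and 2.10 TPM and tumors 10, 11 and 12 at 2.86, 1.97 and 3.34, all inside the range of the mice with 1 tumor. Over all 36 genes the Euclidean distance on the log2 scale averaged 4.10 between tumors of a mouse (3.25 to 5.21) and 8.19 between others (2.77 to 16.8). The 30 pairs that include tumor 2, 8 or 9 are all among the others, and without them the mean of the remaining 32 pairs was 5.05 (2.77 to 8.52). The closest pair, tumors 1 and 5 at 2.77, came from different mice, and tumors 10 and 12 were the third closest at 3.25.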

How the data were processed

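RNA from about 50 mg of each of 12 mammary tumors of 9 MADM-mutant mice was sequenced from stranded mRNA libraries. The deposited values are TPM per Ensembl gene, which the authors made by trimming adapters with fastq-mcf, aligning to GRCm38 with HISAT2 and quantifying with StringTie 2.1.6. The sources used here do not state whether strand was used or how transcript values became gene values. TPM is relative, and no read number or depth is left, so no count model and no counting interval was used. Tumors were identified by the animal and suffix in their labels.

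From these TPM values log2(TPM + 1) was computed and tumors of one mouse were averaged. Differences between 2 genes were tested by exact sign-flip permutation over 9 mice, correlations by exact permutation of the pairings (100000 resamples where 12 tumors were the units), and same-mouse differences by exact permutation of the animal labels (7920 assignments). Benjamini-Hochberg adjustment was over 8, 8 and 3 tests, at a level of 0.05. No score over the genes was tested. The 36 genes, the lists and the pairs were chosen with earlier results of these data known. Genes named are the 36, the highest and lowest by mean of each list, and the 10 most like Cd3e and Cd274 among genes with a mean of 1 TPM or more. Any other gene is marked where it is named, and 1 gene under this rule is not reported here.

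Backgrounds were counted over 20659 genes with 1 TPM or more in at least 1 tumor, and over the 20658 of them that varied for r (20572 without tumor 9 and 20578 without tumor 2). Alternatives were a pseudocount of 0.1, genes with a mean of 1 TPM or more, TPM rescaled without 37 mitochondrial genes (a median shift of 0.049 to 0.10 on the log2 scale), each tumor as a unit, leaving out each mouse or tumor, and leaving out tumors 2 and 9. Leaving out tumors 2, 8 and 9 was added after seeing the data. Gene positions came from GENCODE vM21 (GRCm38), which placed all 36 genes, and promoter windows and starts from RefSeq on GRCm38.p6, which held 27 of the 36. Tests were checked on simulated data. The tools were scipy 1.17.1, numpy 2.4.6 and pandas 2.3.3 under Python 3.11.15, with figures from matplotlib 3.10.9.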

Additional observations from a re-analysis of the deposited data

Results flagged for a closer look

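Among the 36 genes, 4 had a mouse far from the other 8 (the gap to the nearest mouse, divided by the range over 9 mice, was above Dixon's 95% critical value). Chance gives about 1 such gene in 20. Over all 20659 genes tested, 22.0% had such a mouse, compared with 11.1% of the 36. All values here are log2(TPM + 1). Ncr1 was 4.23 in the mouse of tumor 8, with the next mouse at 0.63 (ratio 0.850). Prf1 was 3.99 in the same mouse, with the next at 1.30 (ratio 0.675). Ifng was 1.72 in the mouse of tumor 9, with the next at 0.75 (ratio 0.561). Havcr2 was 1.35 in the mouse of tumor 2, below the next lowest at 3.00 (ratio 0.524). The causes were not tested.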

How the results depend on the processing

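Of 118 recomputed contrasts 108, of 119 correlations 107, of 51 same-mouse differences 49, of 27 counts 25 and of 396 mean levels all 396 kept their direction and side of the threshold (counts: within 1.5 times; levels: within 1 SD). Leaving out a single mouse cannot move a mean level by 1 SD, so the rule for levels could hardly fail. The 396 levels are therefore no evidence of robustness. The cause of the changes was not tested unless stated. With each tumor as a unit Havcr2 minus Pdcd1 was 1.54 and passed.

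Leaving out 1 mouse at a time, Havcr2 minus Pdcd1 ran from 1.27 to 2.00, Ctla4 minus Cd28 from -0.25 to 0.23, Cd4 minus Cd8a from 0.54 to 0.97, r of Cd3e with Pdcd1 from -0.15 to 0.86, of Cd3e with Ncr1 from 0.33 to 0.86 (0.58 without tumor 9, adjusted p = 0.038) and of Cd4 with Csf1r from -0.24 to 0.93. Leaving out 1 tumor, the same-mouse difference of Cd274 (same-mouse minus other pairs) ran from -1.08, without tumor 11, to -0.23, and passed without tumor 11 only (adjusted p = 0.042). The count of genes highest in tumor 9 ran from 17 to 29 and in tumor 8 from 13 to 26, by construction, since each is second in many genes.

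Without tumors 2 and 9, Havcr2 minus Pdcd1 was 2.11 and passed, Ctla4 minus Cd28 was 0.22, and r of Cd3e with Foxp3 (0.77) and of Havcr2 with Csf1r (0.75) no longer passed. Without tumors 2, 8 and 9, 6 mice were left and the smallest p of a contrast is 0.031, which 4 of the 8 contrasts reached, at an adjusted p of 0.063 that does not pass: Cd8a minus Cd8b1 was 0.29, Havcr2 minus Pdcd1 2.17, Cd274 minus Pdcd1lg2 3.04 and Gzmb minus Prf1 1.02. Ctla4 minus Cd28 was 0.12. There r was 0.90 for Cd3e with Cd8a, 0.67 with Foxp3 and 0.90 with Cd274, and 0.33 for Havcr2 with Csf1r, none passing, and the same-mouse difference of Cd274 was 0.078. With unknown depth, values under 1 TPM and zeros are of unknown precision, and the 9 mice limit each test.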
